A study of Caenorhabditis elegans with 66 samples.

Results

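The regions described here lie on the X chromosome of the nematode Caenorhabditis elegans and away from the genes of short RNAs. They are the summits of deposited chromatin immunoprecipitation sequencing (ChIP-seq) peaks on X that lie more than 500 bp from every annotated tRNA, snRNA, snoRNA, miRNA, piRNA or rRNA gene. The rule chose 20445 of the 24842 X summits, among 257255 summits in 33 immunoprecipitated (IP) libraries. Position alone chose them, and no measured value entered the rule. A summit is the base of highest enrichment within a called region, and a region can hold several. Summits of all libraries at most 200 bp apart were chained into sites, which gave 2836 sites on X among 19877 on all 6 nuclear chromosomes under the same rule. At the border of the rule, 133 member summits lay 501 to 600 bp from a short RNA gene, with a median fold of 3.05, and 116 summits at 401 to 500 bp were left out, with a median fold of 2.59. A fold here is the authors' ratio of IP over input signal at the summit, used to describe and rank peaks within a list.

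The immunoprecipitated proteins, each tagged with 3xFLAG, belong to SNAPc, a complex that activates small nuclear RNA genes. SNAPc binds the proximal element of snRNA promoters, and in C. elegans its subunit SNPC-4 also occupies piRNA genes, most of which lie in clusters on chromosome IV. Another subunit comes in related versions, of which SNPC-1.1 and SNPC-1.2 were tagged here and SNPC-1.3 or SNPC-1.2 was removed in the strains marked (-). In the hermaphrodite germline the X chromosome is transcribed less than the autosomes. Of the genes the rule avoids, X carries 162 of 15363 piRNA, 3 of 129 snRNA and 276 of 634 tRNA genes in the annotation used.

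Each of 11 groups had 3 IP libraries with their inputs, made from liquid cultures of many pooled animals. In dataset 1, of whole gravid adults at 72 h, SNPC-1.2 was immunoprecipitated from an AID strain, which joins snpc-1.2::3xflag with snpc-4::aid and with Psun-1::tir1, and from worms with snpc-1.2::3xflag alone, with untagged N2 treated alike. That strain carries a degron on SNPC-4 and the TIR1 protein under the germline promoter of sun-1, and the labels do not state whether auxin was given. In dataset 2, of whole worms, SNPC-4 was immunoprecipitated at 48 h (L4 larvae) from snpc-4::3xflag; snpc-1.3(-) and snpc-4::3xflag worms with N2 beside them, and at 72 h from snpc-4::3xflag; snpc-1.2(-) and snpc-4::3xflag worms with N2 beside them. In dataset 3, of germline nuclei from young adults at 56 h, SNPC-1.1 was immunoprecipitated from snpc-1.1::3xflag worms with N2 beside them, and its replicates are numbered 2, 3 and 4. The description of N2 replicate 2 in dataset 3 names SNPC-1.2 where the others name SNPC-1.1, and it was kept as N2 of dataset 3. Nothing in the labels ties a replicate to its own culture, so p-values measure only the spread between these libraries.

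Some lists stood apart before any result. The AID lists held 281, 81 and 67 peaks and the N2 lists of dataset 1 held 16, 2 and 2, so little can be compared within dataset 1. In dataset 3 the lists of SNPC-1.1 replicate 3 (1504 peaks) and N2 replicate 4 (28 peaks) were far shorter than the others, and results that use them are given with and without them. The SNPC-4 lists held 14538 to 16732 peaks. Read depth is unknown, because no reads or counts were used.

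The number of X regions away from short RNA genes was high with tagged SNPC-4 and low in N2. SNPC-4 at 48 h had 1207, 1138 and 1281 such regions, against 283, 353 and 134 in N2 at 48 h. SNPC-4 at 72 h had 1006, 975 and 1049, against 205, 188 and 421 in N2 at 72 h. The groups did not overlap at either age. The mean was 1209 ± 71.5 in SNPC-4 and 257 ± 112 in N2 at 48 h, and 1010 ± 37.2 in SNPC-4 and 271 ± 130 in N2 at 72 h (SD, n = 3 each). Stratified over both ages, SNPC-4 libraries had 845 more regions than N2 libraries (exact two-sided permutation test over 400 labellings, p = 0.005, the smallest it can give, Benjamini-Hochberg adjusted p = 0.0375 over 30 tests). Within one age the smallest p that 3 against 3 libraries can give is 0.1. With every list of a comparison shortened to the same number of peaks by q value, the stratified difference became -17.8 (exact permutation p = 0.125, adjusted p = 0.234). Within ages it became -54.3 at 72 h and 6.67 at 48 h. Shortening fixes the total by construction, so only the share of peaks that lie in these X regions can still differ. It therefore cannot show what part list length has in the difference in number.

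In germline nuclei, SNPC-1.1 replicates 2, 3 and 4 had 2121, 141 and 1301 X regions, and N2 replicates 2, 3 and 4 had 50, 125 and 3. Every SNPC-1.1 library exceeded every N2 library, but SNPC-1.1 replicate 3 lay close to N2 replicate 3. Without SNPC-1.1 replicate 3 the difference of means was 1652 regions, against 1128 with it, and neither passed (exact permutation p = 0.1, adjusted p = 0.188 with all libraries).

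SNPC-1.2 had almost no such regions on X. The AID libraries had 0, 0 and 0, those of SNPC-1.2 without AID had 9, 5 and 5, and N2 of dataset 1 had 1, 0 and 0. The SNPC-1.2 lists were not short, at 9926, 8397 and 4791 peaks, and they held 168, 97 and 35 summits on X in all. Of these X summits 5.36%, 5.15% and 14.3% lay away from short RNA genes, against 85.7%, 85.2% and 81.7% of the summits on chromosomes I, II, III and V in the same lists. In the 12 SNPC-4 libraries the share on X was 78.0 to 84.1%. Across the 4 tagged-against-N2 pairs the tagged libraries had 706 more X regions (exact permutation test over 160000 labellings, p = 1.25e-05, the smallest it can give, adjusted p = 3.75e-04). In each pair the N2 lists were shorter than the tagged lists. Lists were not shortened to equal length for this test, and the part of list length in the difference was not tested. SNPC-1.2 and SNPC-4 at 72 h come from different datasets, so protein and dataset cannot be told apart between them.

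**Figure D1:**
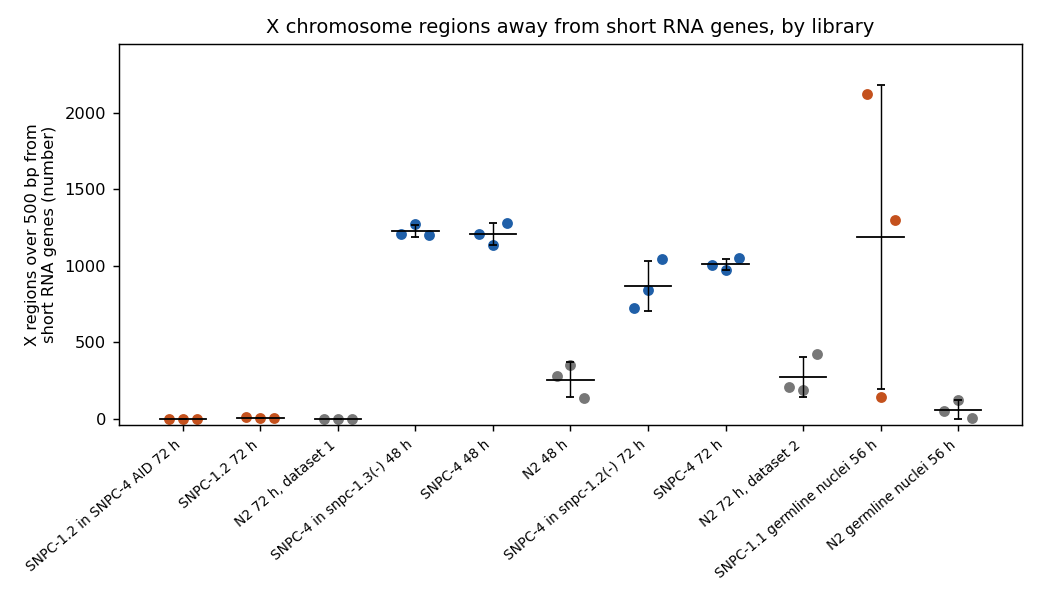
X regions more than 500 bp from short RNA genes (vertical axis, number) in each of 33 libraries, by group. Points are libraries (blue SNPC-4, orange SNPC-1.2 or SNPC-1.1, grey N2), lines are means and error bars are SD of 3 libraries. SNPC-4 libraries, null strains included, lie between 725 and 1281 regions, N2 libraries of dataset 2 between 134 and 421, and SNPC-1.2 libraries at 5 to 9.

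The density of these regions was set against that on chromosomes I, II, III and V, also more than 500 bp from short RNA genes. Chromosome IV was left out of this ratio for its piRNA clusters. This part of X measures 17.2 Mb and that of the 4 autosomes 63.8 Mb. Each ratio is made within 1 list, and it can still change with how many peaks the list holds.

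At 48 h X was nearly as densely covered as the autosomes. The ratio was 0.908, 0.904 and 0.980 with SNPC-4, and 0.935, 0.913 and 1.11 in N2. At 72 h it was 0.716, 0.725 and 0.730 with SNPC-4, and 0.662, 0.972 and 0.717 in N2. SNPC-4 and N2 overlapped at both ages, and the stratified difference was -0.0583 (exact permutation p = 0.410, adjusted p = 0.559). With lists shortened to equal length this difference became 0.0973 (exact permutation, adjusted p = 0.545), so its sign is not settled.

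Between ages the ratio was lower at 72 h. With SNPC-4 it averaged 0.724 ± 0.00709 at 72 h, against 0.931 ± 0.0429 at 48 h (SD, n = 3 each), and the groups did not overlap (exact permutation p = 0.1, the smallest possible, adjusted p = 0.188). N2 averaged 0.784 ± 0.165 at 72 h, against 0.987 ± 0.110 at 48 h, with overlapping libraries (exact permutation p = 0.300, adjusted p = 0.474). The SNPC-4 minus N2 difference in the ratio was -0.0598 at 72 h and -0.0567 at 48 h, and the test of the difference between them gave p = 0.985 (exact, labels permuted within age). The mean difference between ages, -0.207 with SNPC-4 and -0.204 in N2, was of like size as the lists stand. With lists of equal length it was -0.202 with SNPC-4 and -0.399 in N2, and at a −log10 q of at least 5 it was -0.201 and -0.379, so the likeness depends on the setting. The part of background signal in it was not tested.

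The highest folds within each list showed the same order. Of the 200 summits away from short RNA genes with the highest fold, X held 12, 12 and 10 with SNPC-4 at 72 h, and 45, 43 and 48 with SNPC-4 at 48 h. In N2 X held 16, 15 and 13 of 200 at 72 h, and 43, 30 and 45 of 200 at 48 h. X held 10.8 to 11.2% of all such summits with SNPC-4 at 72 h and 13.9 to 14.8% at 48 h. Its share of the 200 strongest was thus below that at 72 h (5.00 to 6.00%) and above it at 48 h (21.5 to 24.0%), in each of 3 libraries.

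With SNPC-1.2 the ratio was 0.0193, 0.0193 and 0.0646, and X held none of the 200 highest summits in any of the 3 lists. The AID lists gave a ratio of 0 from 52, 9 and 6 autosomal regions. With SNPC-1.1 the ratio was 1.09, 0.643 and 0.924, against 0.716 to 0.730 with SNPC-4 at 72 h (mean difference 0.160, exact permutation p = 0.400, adjusted p = 0.559). The groups overlapped only through SNPC-1.1 replicate 3, the short list, and replicates 2 and 4 lay above each SNPC-4 library. Without replicate 3 the difference was 0.281. At a −log10 q of at least 5 it was 0.325 with all libraries (exact permutation p = 0.1, adjusted p = 0.176). Protein, tissue, age and dataset all differ between SNPC-1.1 and SNPC-4 at 72 h and cannot be told apart.

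**Figure D2:**
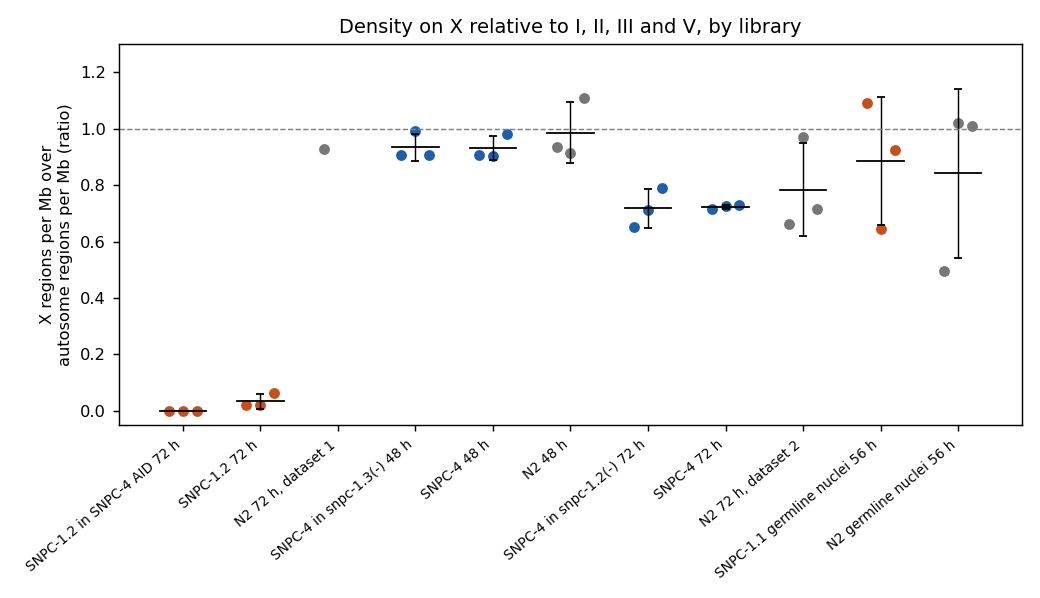
Regions per Mb on X over regions per Mb on I, II, III and V (vertical axis, ratio), all more than 500 bp from short RNA genes, for each library with at least 1 autosomal region. Lines are means and bars SD where all 3 libraries have a value; the dashed line marks equal density. SNPC-4 libraries, null strains not included, lie at 0.716 to 0.730 at 72 h and 0.904 to 0.980 at 48 h. SNPC-4 lies at 0.653 to 0.791 in snpc-1.2(-) and 0.905 to 0.990 in snpc-1.3(-), and SNPC-1.2 libraries lie at 0.0193 to 0.0646.

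The X regions were wider with SNPC-4 than in N2. Median widths were 443, 470 and 448 bp with SNPC-4, and 324, 379 and 351 bp in N2 at 48 h. At 72 h they were 439, 451 and 445 bp with SNPC-4, and 333, 334 and 345 bp in N2. The stratified difference was 105 bp (exact permutation p = 0.005, adjusted p = 0.0375), and with lists of equal length it was 355 bp, the same sign, at an adjusted p of 0.05 that no longer passed (exact permutation test). The widest X region was 3233 bp among SNPC-4 libraries and 3872 bp among N2 libraries, so the difference lies in the medians and not in the maximum. On the autosomes of the same lists the medians were 503, 517 and 510 bp with SNPC-4 at 72 h, and 437, 460 and 436 bp at 48 h. The X medians were thus below the autosomal ones in each of 3 libraries at 72 h and slightly above them in each at 48 h. N2 had the same order, with autosomal medians of 342, 335 and 363 bp at 72 h, and 323, 362 and 324 bp at 48 h.

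SNPC-1.1 regions on X had median widths of 458, 198 and 402 bp, the middle value again from replicate 3. Its N2 libraries with at least 10 X regions had 329 and 271 bp. The 19 SNPC-1.2 regions were 264 to 565 bp wide.

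Widths did not differ beyond the spread between the null strains and their SNPC-4 controls. Median widths were 437, 450 and 462 bp in snpc-1.3(-), and 443, 470 and 448 bp in SNPC-4 at 48 h (difference -4.17 bp, exact permutation p = 0.700, adjusted p = 0.840). They were 398, 445 and 412 bp in snpc-1.2(-), and 439, 451 and 445 bp in SNPC-4 at 72 h (difference -26.7 bp, exact permutation p = 0.300, adjusted p = 0.474).

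Most X regions did not sit at the ends of protein-coding genes. With no strand in the annotation used, a gene's start and finish were treated alike, and a region counted as near a gene end when its summit lay within 500 bp of either. Such sequence makes up 25.8% of the searched part of X and 32.9% of that of the 4 autosomes. With SNPC-4, 33.4, 32.7 and 32.6% of X regions lay near a gene end, against 39.2, 38.5 and 37.3% in N2 at 48 h. At 72 h the shares were 33.9, 35.2 and 34.4% with SNPC-4, and 42.9, 42.0 and 39.9% in N2. The groups did not overlap at either age, and the stratified difference was -6.30 percentage points (exact permutation p = 0.005, adjusted p = 0.0375). With 200 bp in place of 500 bp it was -3.35 points and no longer passed (exact permutation, adjusted p = 0.200), and with lists of equal length it was -24.2 points, where the adjusted p of 0.05 no longer passed either (exact permutation test).

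The autosomes looked different in the same lists. There 51.4 to 58.6% of the regions of the 12 SNPC-4 libraries lay near a coding gene end, against 31.0 to 35.2% on X, with no overlap. N2 of dataset 2 had the same contrast without a tag, at 50.7 to 63.6% on the autosomes and 37.3 to 42.9% on X. SNPC-1.2 went furthest, with 82.7, 83.0 and 74.9% of autosomal regions near a gene end.

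Conversely, regions inside coding genes were more frequent with SNPC-4 than in N2. The share inside a gene was 36.0, 36.1 and 36.8% with SNPC-4, and 27.9, 26.1 and 20.9% in N2 at 48 h. It was 36.2, 35.7 and 36.3% with SNPC-4, and 22.9, 22.3 and 24.7% in N2 at 72 h. All these shares were under the 54.8% of searched X sequence that lies inside coding genes. In snpc-1.2(-) the share was 39.4, 39.8 and 39.3%, above each SNPC-4 library at 72 h. No test was planned for this share.

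**Figure D3:**
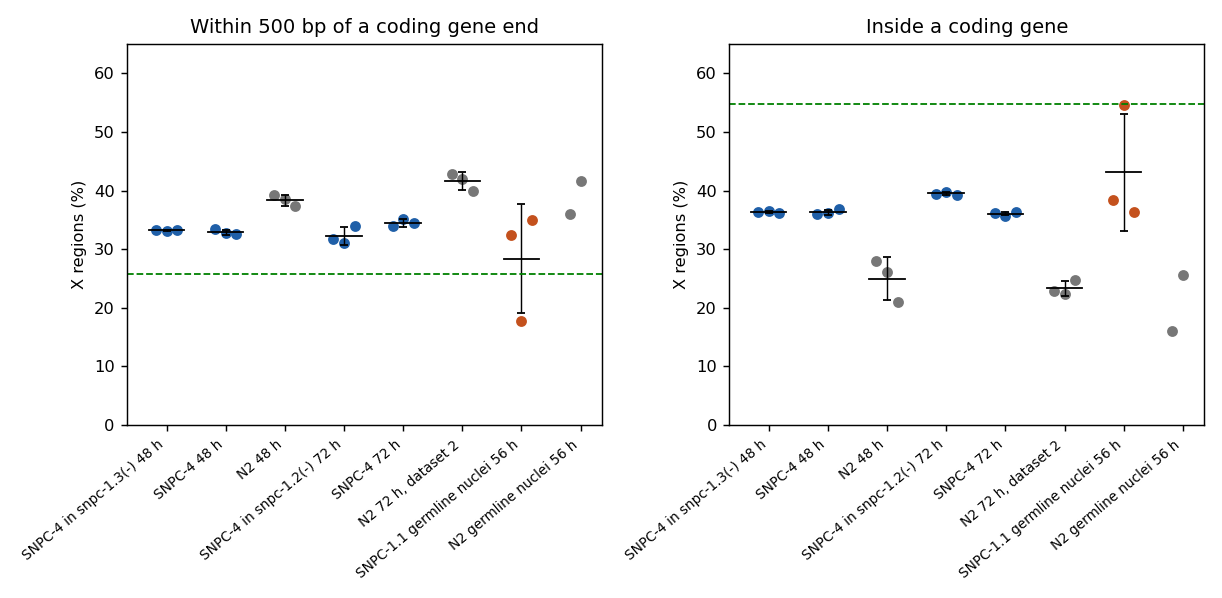
Percent of X regions within 500 bp of a coding gene end (left) and inside a coding gene (right), by library, with means and SD where all 3 libraries have at least 10 X regions. The green dashed lines give the same percent of searched X sequence, 25.8% and 54.8%. N2 libraries of dataset 2 lie above SNPC-4 libraries on the left and below them on the right.

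Along the chromosome the SNPC-4 regions gathered at one end. X was divided into 5 equal parts in coordinate order, each with 19.9 to 20.2% of the searched sequence. The last part held 34.7 to 35.8% of SNPC-4 regions, against 22.7 to 25.4% of N2 regions at 48 h. At 72 h it held 34.0 to 35.3% of SNPC-4 regions, against 21.0 to 23.4% of N2 regions. The middle part held 11.0 to 11.2% with SNPC-4, and 13.3 to 14.8% in N2 at 48 h, so it was thinly covered in both. With SNPC-1.1 the last part held 27.9 to 46.1%, a range that takes in replicate 3. On the 4 autosomes together the last part held 21.0 to 21.3% of SNPC-4 regions at 48 h. Gene density and base composition along X were not examined, and their part in the pattern was not tested.

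**Figure D4:**
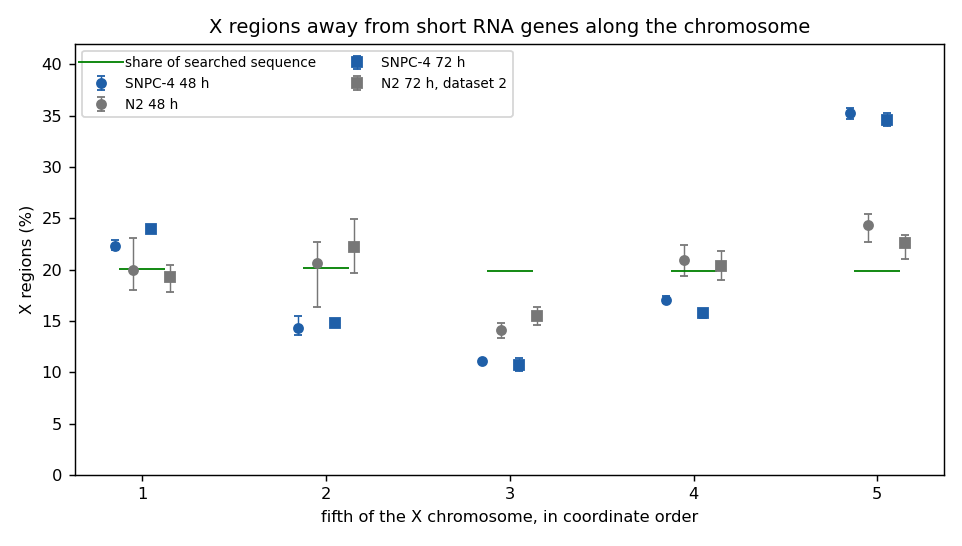
Percent of X regions away from short RNA genes (vertical axis) in each of 5 equal parts of the chromosome in coordinate order, for SNPC-4 and N2 at 48 h and 72 h. Points are means of 3 libraries, bars run from the lowest to the highest library, and green marks give the share of searched sequence. SNPC-4 lies at 34.0 to 35.8% in the last part and N2 at 21.0 to 25.4%.

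Sites recurred well between libraries of tagged SNPC-4. Among 1563 X sites found with SNPC-4 at 48 h, 1314 were in at least 2 of 3 libraries, and among 1245 found at 72 h, 1070 were. Recurrence was lower in N2, with 226 of 481 sites at 48 h, and 229 of the 513 found at 72 h. The N2 lists were also shorter and less even. They held 947 to 2930 peaks at 48 h and 1400 to 4229 at 72 h, against 15078 to 16323 and 15682 to 16534 with SNPC-4. The part of list length in recurrence was not tested. Of the 2836 X sites, 917 were in 1 library only, and 685 of these belonged to SNPC-1.1 replicate 2, which has the most X regions.

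For each comparison a site was called if every library of a group had a summit there while the opposite group had no summit. SNPC-4 at 48 h had 757 X sites called higher than N2, or 46.1% of 1643 sites seen, where the rule called 47.2% of sites on all chromosomes. SNPC-4 at 72 h had 590 called higher than N2, or 43.4% of 1361, where 44.5% were called on all chromosomes. X was therefore close to the background in both. Called lower were 0 X sites at 48 h (background 0.0346%) and 1 at 72 h (background 0.0675%), near the F-box gene fbxb-58. That site had folds of 2.56, 2.53 and 3.73 in N2 at 72 h. At 48 h SNPC-4 replicate 1 listed it at 5.78, and N2 listed it at 2.25, 2.86 and 2.17, so it is not a site that SNPC-4 lacks at both ages. The call at 72 h also depended on how sites were defined. With chaining at 500 bp or by overlap of regions, 0 X sites were called lower at 72 h. With lists of equal length the calls were far less one-sided, at 113 higher and 54 lower at 48 h and 74 higher and 63 lower at 72 h.

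Both ages largely called the same places. Of the 590 X sites called at 72 h, 490 were also called at 48 h, which is 83.1% of the 72 h sites and 64.7% of the 48 h sites. On the 4 autosomes the 2230 sites called at both ages made up 68.3% and 68.6%. These comparisons share no library.

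SNPC-1.1 in germline nuclei had 105 X sites called higher than N2, or 4.12% of 2550 sites seen (background 4.53% on all chromosomes), and 0 called lower (background 0%). This count was set by SNPC-1.1 replicate 3: without it and the short N2 list, a choice made after seeing the data, 1239 X sites were called, or 49.2% of 2519, where 52.6% were called on all chromosomes. Of the 105 sites, 101 (96.2%) were also called for SNPC-4 at 48 h and 102 (97.1%) at 72 h. On the 4 autosomes the same held for 89.9% and 90.6% of 447 called sites. By the looser measure of at least 2 of 3 libraries, SNPC-1.1 had 1371 X sites, and 989 of them were among the 1070 of SNPC-4 at 72 h, which is 72.1% of the SNPC-1.1 sites and 92.4% of the SNPC-4 sites. On the autosomes the shared sites made up 81.0% and 75.5%.

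SNPC-1.2 had 0 X sites called higher than N2 among 17 seen. There the rule called 15.8% of sites on all chromosomes and 10.1% on the 4 autosomes without chromosome IV. The AID strain had 0 X sites called lower than SNPC-1.2 among 16 seen (background 12.6%, or 8.55% on the 4 autosomes). Without SNPC-1.2 replicate 3, 3 X sites met each of these calls. No X site was found in at least 2 of 3 libraries of all 7 tagged groups, since the AID strain had none. In the 5 tagged groups of datasets 2 and 3 there were 783, near 582 distinct coding genes.

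The sites named first had no N2 summit in their comparison by construction, since the call required it, and so their absence there is not a result. Sites were named by the nearest protein-coding gene on WBcel235, which does not show that the gene is bound or regulated. By the naming rule, the 5 called sites with the highest median fold over the first group were taken for each comparison.

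The site with the highest median fold at 48 h, tied to 3 digits with the next, lay inside C33E10.10 at X:17300911-17300932, the span of its summits over 15 libraries. Its SNPC-4 folds were 26.1, 23.9 and 31.2 at 72 h and 36.3, 41.1 and 45.4 at 48 h. SNPC-1.1 had 38.2, 3.47 and 17.3, the lowest again in replicate 3.

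The next site lay 2114 bp from K08B5.1, between genes, at X:16564685-16564699 and 41 bp from the annotated non-coding RNA K08B5.8. SNPC-4 had 39.0, 31.4 and 36.7 at 72 h and 41.1, 38.9 and 41.8 at 48 h, and SNPC-1.1 had 25.4, 3.86 and 21.9. Further summits stood nearby at X:16565955-16565967 and X:16566550-16566584, with medians of 27.6 and 27.3 with SNPC-4 at 72 h. All 3 were present in each SNPC-4 and SNPC-1.1 library, and K08B5.1 is only the nearest coding gene to a small group of intergenic peaks.

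The other leading sites at 48 h stood near Y15E3A.5, mrp-5 and F56F10.1. The site 1410 bp from Y15E3A.5 had SNPC-4 folds that came to 26.0, 23.5 and 26.7 at 72 h and 38.3, 40.8 and 43.0 at 48 h. The site 107 bp from mrp-5, which encodes an ABC transporter that exports heme, had 16.6, 13.8 and 16.9 at 72 h and 37.6, 40.1 and 43.7 at 48 h. The site 443 bp from F56F10.1 had 11.2, 8.79 and 12.0 at 72 h and 38.6, 35.4 and 45.3 at 48 h. All 3 were also listed in each SNPC-1.1 library.

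At 72 h the leading sites added one 961 bp from M163.5, at X:14477448-14477493 and 74 bp from the non-coding RNA M163.12. SNPC-4 had folds of 30.5, 27.0 and 31.8 there at 72 h and 28.6, 29.3 and 32.0 at 48 h. Its regions were among the widest on X, at 2881, 2883 and 3233 bp with SNPC-4 at 48 h. SNPC-1.1 added a site inside lgc-40, a ligand-gated ion channel gene, at X:2363006-2363023, with folds of 18.8, 3.21 and 16.9 and of 31.4, 28.7 and 32.3 with SNPC-4 at 48 h.

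N2 also had recurrent X sites. In all 6 N2 libraries of dataset 2 there were 66 X sites, near 63 coding genes, and the 5 with the highest median fold among them are named. They lay near ftt-2, which encodes a 14-3-3 protein, hsp-3, an endoplasmic reticulum chaperone of the HSP70 family, ain-1, a component of the miRNA silencing complex, and in 2 cases near C30E1.4. The ftt-2 site was listed at 9.39, 9.50 and 9.51 with SNPC-4, and at 3.99, 4.16 and 2.24 in N2 at 48 h. At 72 h it was listed at 7.73, 7.86 and 7.58 with SNPC-4, and at 4.04, 4.92 and 5.93 in N2. The hsp-3 site was listed at 7.82, 5.72 and 7.54 with SNPC-4, and at 2.87, 3.81 and 2.66 in N2 at 48 h. One C30E1.4 site, at X:16930066-16931935, was listed higher in N2, except in N2 replicate 3 at 48 h. SNPC-4 listed it at 2.87, 2.63 and 2.47, and N2 at 4.29, 4.27 and 2.35 at 48 h. At 72 h SNPC-4 listed that site at 2.46, 2.32 and 1.92, and N2 at 3.48, 3.00 and 5.21. By their equal widths, its regions at 48 h were those of the other C30E1.4 site. At that other site SNPC-4 had 6.45, 6.10 and 8.63, and N2 had 3.36, 3.69 and 2.40 at 48 h. The highest fold of any X site, picked after its values were seen, was 53.1 in SNPC-1.1 replicate 2, at a site 3067 bp from the sodium/proton exchanger gene nhx-1. SNPC-1.1 replicate 4 had 15.0 there, replicate 3 had no summit, and N2 at 48 h had 2.74, 2.30 and 2.37.

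Within each SNPC-4 library the sites with and without an N2 counterpart differed in both place and fold. Over the 12 libraries, 491 to 1030 X sites were in no N2 library of the same age, and 95 to 111 were in all 3. Median folds were 2.74 to 3.74 in the first kind and 2.57 to 5.19 in the second, and the second was higher in 10 of 12 libraries. The highest fold was 21.0 to 52.0 in the first kind and 7.98 to 22.4 in the second. Inside coding genes lay 41.6 to 50.7% of the first kind and 20.4 to 24.5% of the second, without overlap. Near a coding gene end lay 24.4 to 31.1% of the first kind and 35.7 to 40.6% of the second. These are descriptions, since presence in N2 defined the kinds.

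**Figure D5:**
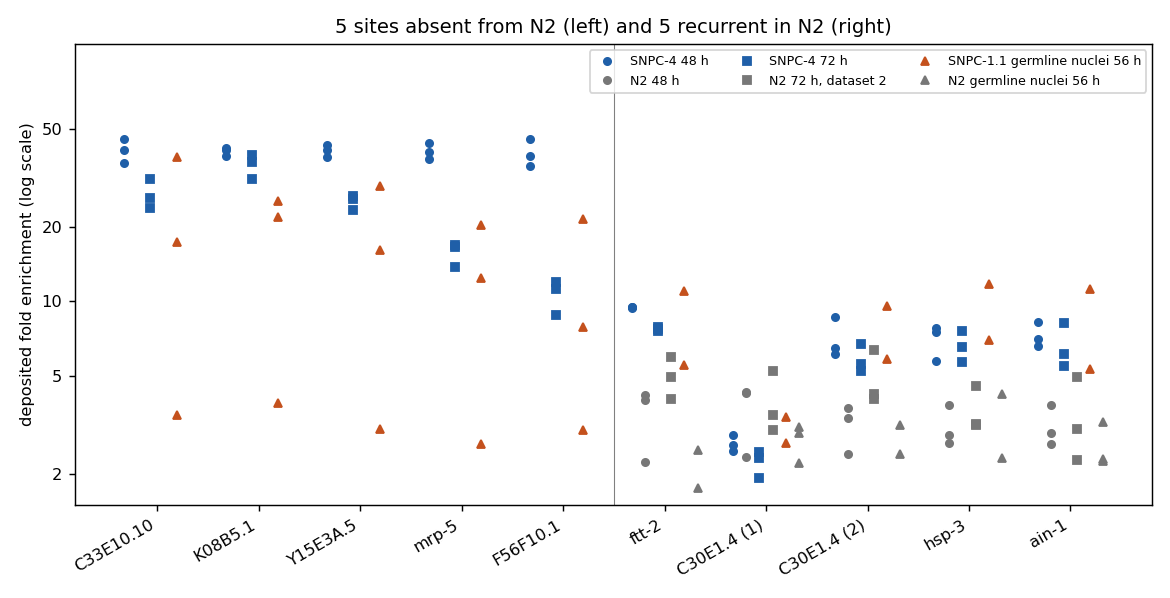
Deposited fold enrichment (vertical axis, log scale) at the 5 X sites with the highest median fold among those called for SNPC-4 at 48 h (left) and the 5 recurrent in N2 (right), named by the nearest coding gene. Each point is 1 library with a summit in the site, and folds are set side by side as each list gives them. The left sites have no N2 point at 48 h because the call required it, and their SNPC-4 folds at 48 h run from 35.4 to 45.4.

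Between snpc-1.3(-) and SNPC-4 the X regions did not differ beyond the spread between libraries, which 3 against 3 libraries can judge only coarsely. The snpc-1.3(-) libraries had 1207, 1272 and 1203 X regions, against 1207, 1138 and 1281 in SNPC-4 at 48 h (difference 18.7, exact permutation p = 1.00). The density ratio was 0.905, 0.990 and 0.905, against 0.908, 0.904 and 0.980. Of the sites in at least 2 libraries, 1215 were shared, which is 92.0% of 1321 in snpc-1.3(-) and 92.5% of 1314 in SNPC-4. On the 4 autosomes the shared sites made up 91.3% and 92.0%, close to X.

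In snpc-1.3(-), 12 X sites were called higher than in SNPC-4 at 48 h, or 0.686% of 1748 (background 0.426%), and 3 lower, or 0.172% (background 0.344%). The sites called higher had median folds of 1.39 to 2.59, near the low end of the lists. The 5 highest lay near cest-7, a carboxylesterase-like gene, ipp-5, an inositol polyphosphate 5-phosphatase gene, F44A6.3, the nuclear hormone receptor gene daf-12 and ZK662.2. The cest-7 site had 2.55, 2.73 and 2.59 in snpc-1.3(-), and no SNPC-4 library at 48 h had a summit there. The 3 called lower lay near B0294.3, inside lgl-1, the worm lethal giant larvae gene, and inside H40L08.3, with SNPC-4 medians of 2.05, 1.74 and 1.53. Leaving out each library in turn gave 15 to 26 sites called higher and 6 to 20 called lower.

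The snpc-1.2(-) strain had fewer X regions in 2 of 3 libraries. It had 725, 840 and 1048, against 1006, 975 and 1049 in SNPC-4 at 72 h (difference -139, exact permutation p = 0.300, adjusted p = 0.474). The groups overlapped, and so did the density ratios, at 0.653, 0.711 and 0.791 in snpc-1.2(-) and 0.716, 0.725 and 0.730 in SNPC-4. The share near a coding gene end was 31.7, 31.0 and 33.9%, against 33.9, 35.2 and 34.4% in SNPC-4 (difference -2.31 points, exact permutation p = 0.1, the smallest possible, adjusted p = 0.188).

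In snpc-1.2(-), 0 X sites were called higher than in SNPC-4 at 72 h (background 0.740%, or 0.255% on the 4 autosomes). Called lower were 28 X sites, or 2.07% of 1351 (background 2.63%, or 3.40% on the 4 autosomes). Their SNPC-4 median folds were 1.44 to 2.87, so none was among the strong sites. The 3 highest lay 25 bp from hst-2, a heparan sulfate 2-O-sulfotransferase gene, near F59D12.5 and near C16E9.2. The hst-2 site had folds of 3.06, 2.49 and 2.87 with SNPC-4 at 72 h. The count was 91 without snpc-1.2(-) replicate 3 and 46 without SNPC-4 replicate 1 or without SNPC-4 replicate 2.

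Between ages the X sites lost outnumbered those gained. SNPC-4 at 72 h had 31 X sites called higher than at 48 h, or 1.84% of 1681 (background 5.16%), and 122 lower, or 7.26% (background 3.46%). On the 4 autosomes the balance was the other way, with 517 higher, or 6.51% of 7943, and 205 lower, or 2.58%. The sites named next were chosen after their values were seen.

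Higher at 72 h were sites near dyn-1, which encodes dynamin, F07G6.5, mboa-3 and C55B6.1, and inside gap-2, a Ras GTPase-activating protein gene. The dyn-1 site had folds of 5.53, 4.97 and 6.19 at 72 h, and no library at 48 h had a summit there. It was also listed in snpc-1.2(-) at 3.90, 4.41 and 6.44.

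Lower at 72 h were a site 65 bp from C26B9.3, one near F27D9.12, one near cpg-19 and 2 near C02B4.3. No SNPC-4 library at 72 h had a summit near C26B9.3, and SNPC-4 at 48 h had 5.25, 6.99 and 9.01. Both C02B4.3 sites, which lie 0 and 34 bp from annotated non-coding RNA genes, were also called lower in N2. At the first, N2 had no summit at 72 h and folds of 1.89, 1.97 and 1.82 at 48 h.

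N2 itself had 2 X sites called higher at 72 h than at 48 h, or 0.293% of 683 (background 1.06%), and 6 lower, or 0.878% (background 0.320%). These counts rest on single libraries: they were 13 higher without N2 replicate 2 at 72 h and 21 lower without N2 replicate 3 at 48 h.

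The X regions of SNPC-1.2 were few and weak, and they are described after their values were seen. Its 16 sites had folds of 1.64 to 3.12 in the libraries that listed them, and 3 sites were in 2 of 3 libraries. One lay within the tRNA pseudogene R04B3.t2, a class the rule does not count as a tRNA gene, with folds of 2.43 and 1.87. Another lay within the pseudogene T26C11.3, with 1.88 and 2.46, and was also listed in N2 at 48 h with 2.28 and 2.00. The last lay 832 bp from F39F10.3, with 2.76 and 2.84. All 3 were among the sites of SNPC-4 at 72 h, where R04B3.t2 had 3.26, 2.26 and 3.20.

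Of the 29 tRNA pseudogenes on X, 7 had a site within 500 bp. Other non-coding RNA genes and pseudogenes, of which X has 2520 under the general ncRNA class alone, lay within 500 bp of 569 of the 2836 sites. In SNPC-4 libraries 15.2 to 20.0% of X regions were near such a gene, against 23.5 to 31.1% in N2 of dataset 2.

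Over all X coding genes, 529 of 2730 (19.4%) were nearest to a site called for SNPC-4 at 48 h, and 452 (16.6%) at 72 h. These genes were long, with a median span of 3961 bp at 48 h, against 2508 bp for all X coding genes, and a longer gene is more often the nearest. Nuclear hormone receptor genes, ligand-regulated transcription factors named nhr, accounted for 9 of 23 (39.1%) at 48 h, among them nhr-1, nhr-28, nhr-48 and nhr-91, and 6 of 23 (26.1%) at 72 h. The median span of these 23 genes was 4321 bp, and the part of gene length was not tested.

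Genes named acr, lgc or unc accounted for 12 of 40 (30.0%) at 48 h and 9 of 40 (22.5%) at 72 h. The unc class groups genes of many functions by an uncoordinated mutant phenotype, and those near sites included the calcium channel gene unc-2 and the transcription factor gene unc-3 beside lgc-40. Their list had a median span of 3804 bp.

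Several other lists had few sites. Neuropeptide genes accounted for 3 of 37 (8.11%) at both ages, namely flp-18, flp-32 and nlp-67, with a list median span of 816 bp. Cuticle collagen genes accounted for 1 of 29 (3.45%), col-186, with a median span of 1122 bp. Homeobox genes of the ceh class accounted for 2 of 18 (11.1%) at 48 h, with a median span of 2644 bp. None of 5 vitellogenin genes, 2 ribosomal protein genes, 3 heat shock genes and 4 histone genes was nearest to a site called for SNPC-4. Their median spans were 5195 bp for vitellogenin, 752 bp for ribosomal protein, 2753 bp for heat shock and 550 bp for histone genes. These lists are very small, and the part of gene length was not tested. The hsp-3 and his-24 genes were nearest to sites recurrent in N2, which the call leaves out, his-24 being a linker histone gene. Both genes were also nearest to sites in at least 2 of 3 libraries of each SNPC-4 group and of SNPC-1.1.

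With SNPC-1.1, 95 of the 2730 genes (3.48%) were nearest to a called site. These included lgc-40, unc-2 and unc-96 of the channel list and col-186, and none of the 23 nuclear hormone receptor genes. That is not an absence of SNPC-1.1 there, since replicate 3 limited the called sites. Sites in at least 2 of 3 libraries of each SNPC-4 group and of SNPC-1.1, N2 sites not removed, were nearest to 11 of the 23 (47.8%). The share over all X coding genes was 582 of 2730 (21.3%).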

How the data were processed

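Peak lists from 33 IP libraries, each with its own input, were used. The submitters' processing notes name MACS2 2.1.2, deepTools with no version and the build WBcel235; an aligner and filters are not given in the sources used here. Per the deposited lists, the authors' values are a fold (ratio of IP over input) at the summit and the −log10 q value, at least 1.3 in all lists. Other deposited columns gave region start and end and the summit offset. Members, gene lists and tests were chosen with earlier results of these data known.

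Summits sharing a start and end were counted as 1 region, and summits at most 200 bp apart were chained into sites. Genes came from a RefSeq table of WBcel235 with 46926 genes and no strand. Differences of library means were tested by two-sided exact permutation, stratified by age or pair where named, with Benjamini-Hochberg adjustment over 30 tests and a threshold of 0.05. Ratios, widths and shares were tested only where each library had at least 10 X regions, so 6 planned tests were not run. The scripts were tested on simulated data. Fixed rules named, per comparison of tagged with N2, AID or null strains, the 5 called-higher and 3 called-lower X sites of highest median fold, and the 5 sites in most N2 libraries of dataset 2. Sequences and motifs are not analysed here. Alternatives were other distances, q and fold thresholds, equal list lengths, other site definitions, leaving out each library and a replicate block. Python 3 with numpy and pandas was used.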

Additional observations from a re-analysis of the deposited data

How the results depend on the processing

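Over the settings other than leaving out a library, 198 of 218 tested values kept their direction and side of the threshold, 7 no longer passed and 13 reversed; of the site counts 142 of 176 stayed within 1.5 times. Requiring a −log10 q of at least 5 gave a snpc-1.2(-) minus SNPC-4 ratio difference of 0.00206, an N2 age difference of -0.333 X regions and 1 N2 site called lower at 72 h. Requiring a fold of at least 3 gave snpc-1.3(-) minus SNPC-4 differences of -8.33 regions, 6.50 bp in width and -0.120 points near gene ends, a snpc-1.2(-) ratio difference of 0.0192, and a SNPC-4 minus N2 difference over both ages of 587 regions that no longer passed (exact permutation, adjusted p = 0.05). Sites called then numbered 0 higher in snpc-1.3(-), 9 lower in snpc-1.2(-), 14 higher and 52 lower at 72 h than at 48 h, 10 for SNPC-1.1, and 0 in either direction for N2 between ages. Leaving out sites near other non-coding genes gave 3 N2 sites called lower at 72 h. Gene ends of 200 bp gave -3.35 points for SNPC-4 minus N2, and of 1000 bp -0.266 points for snpc-1.3(-) minus SNPC-4.

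With lists shortened to equal length, which leaves fewer peaks in the SNPC-4 lists by construction, the SNPC-4 minus N2 ratio at 48 h became 0.298 with 113 sites called higher and 54 lower, and at 72 h the difference was -54.3 regions with 74 sites called higher and 63 lower. Over both ages it became -17.8 regions, 0.0973 in ratio, 355 bp in width and -24.2 points near gene ends. For snpc-1.3(-) it became -1.33 regions, and for N2 between ages -26.3 regions with 1 site called higher. Shortening was not run for the SNPC-1.2, AID, SNPC-1.1 and 4-pair comparisons. The cause of these changes was not tested otherwise.

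Replicate numbers did not pair the samples: same-numbered libraries correlated at -0.0426 to 0.0955 in their deviations from the group means, and in 2 of 6 comparisons each of 3 numbers correlated best with its own. With a replicate block, SNPC-4 minus N2 over both ages stayed at 845 regions, 105 bp and -6.30 points, none of which passed (exact sign-flip permutation p = 0.0312, the smallest possible, adjusted p = 0.219). Under the block a call needs 2 of 3 same-numbered pairs one way and none the other, and sites lower than N2 numbered 8 for SNPC-4 at 48 h, 10 at 72 h and 1 for SNPC-1.1, and the others 3 for SNPC-1.2, 3 lower for AID, 59 higher and 51 lower for snpc-1.3(-), 9 higher and 155 lower for snpc-1.2(-), 65 higher and 291 lower at 72 h than at 48 h, 1245 for SNPC-1.1, and 35 higher and 29 lower for N2 between ages. Leaving out both short lists of dataset 3, chosen after seeing the data, gave 1239 sites higher and 1 lower for SNPC-1.1. Chaining at 500 bp and overlap of regions each gave 1 site lower with SNPC-4 at 48 h and 0 at 72 h.

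Leaving out each library in turn kept 209 of 222 tested values in direction and 75 of 108 site counts within 1.5 times. Differences that reversed ran from -0.0938 to 0.00650 in ratio for SNPC-4 minus N2 at 48 h and from -0.121 to 0.0344 at 72 h, from -0.0418 to 0.0275 in ratio for snpc-1.2(-), and from -60.2 to 62.8 regions for N2 between ages. For snpc-1.3(-) they ran from -16.7 to 54.8 regions, -0.0254 to 0.0276 in ratio and -10.4 to 4.00 bp in width, and SNPC-1.1 minus SNPC-4 ran from -289 to 701 regions. Site counts ran from 0 to 3 for SNPC-1.2 and lower in AID, 15 to 26 higher and 6 to 20 lower in snpc-1.3(-), 0 to 4 higher and 29 to 91 lower in snpc-1.2(-), 105 to 1239 for SNPC-1.1, 0 to 6, 1 to 6 and 0 to 1 lower than N2 for SNPC-4 at 48 h, at 72 h and for SNPC-1.1, and 2 to 13 higher and 6 to 21 lower for N2 between ages. Read depth is unknown, so no limit of detection could be set for any list.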
